A study of Mus musculus with 12 samples.

Results

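The cells described here were bihormonal islet cells of the mouse that held transcripts of both pancreatic polypeptide (Ppy) and glucagon (Gcg) and came from the YFP+ fraction of a γ-cell lineage-tracing line. They were selected on their own measured hormone levels. With L the natural logarithm of 1 plus the unique molecular identifier (UMI) counts of a gene per 10000 UMIs of the cell, a Ppy+Gcg+ cell had L above 3.23 for Ppy and above 5.12 for Gcg, at most 6.36 for Ins2 and at most 3.32 for Sst. Cells with L above 3 for Cd74, Col3a1 or Plvap, which mark immune, stromal and endothelial cells, had been removed first. In the YFP+ libraries of both experiments this rule found 662 Ppy+Gcg+ cells, while the 4 single-cell libraries held 5982 cells in all. There were 334 of 1300 cells (25.7%, exact 95% binomial interval 23.3 to 28.2) in experiment 1 and 328 of 1498 cells (21.9%, 19.8 to 24.1) in experiment 2. These intervals, like all those given for shares of cells, cover counting error only.

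The mice carried Ppy-rtTA, TetO-Cre and R26-YFP, a combination that marks cells with an active Ppy locus permanently once doxycycline is given. One Ppy allele had its coding sequence replaced by that of the transactivator rtTA, so all of these cells were heterozygous for Ppy. Male and female mice of mixed background received doxycycline at 1 mg/ml in the drinking water, given 1 month before the cells were taken at 2 months of age, and the ventral pancreas alone was used. The label of the single-cell samples gives the age together with the words wild-type, whereas YFP and rtTA transcripts were present in the YFP+ libraries. In each of 2 experiments, which pooled islets of 3 and 4 mice, YFP+ and YFP- cells were sorted and loaded separately for 10x droplet sequencing of transcript 3′ ends. Monohormonal Ppy+ cells of the YFP+ libraries (γ-cells, 721 and 828 cells) and monohormonal Gcg+ cells of the YFP- libraries (α-cells, 326 and 345 cells) served as the comparison classes, with the same thresholds applied to all 4 hormones. Bulk RNA-seq libraries of 5 YFP+ γ-cell sorts from the same line and of 3 δ-cell sorts from Sst-Cre; R26-YFP mice, all at 2 months of age, were read for levels only.

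γ-Cells secrete pancreatic polypeptide, a member of the neuropeptide Y family that acts on satiety and digestive secretion, and α-cells secrete glucagon, which raises blood glucose by acting on the liver. The Iroquois homeobox factors Irx1 and Irx2 are expressed in α-cells in the adult mouse, whereas Pyy, the gene of peptide YY, lies beside Ppy and is strongly expressed in γ-cells.

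The promoters of the 3 peptide genes are shown because the knock-in places Ppy on one allele and rtTA on the other behind the Ppy promoter, and because the cells were selected on Ppy and Gcg transcripts. Each is the stretch of 250 bases before the transcription start in the RefSeq annotation of GRCm38.p6, on the minus strand: chr11:102101320-102101569 for Ppy, chr11:102107833-102108082 for the first of 2 Pyy entries and chr2:62483654-62483903 for Gcg. Capitals mark TATAAA or its reverse complement.
Ppy: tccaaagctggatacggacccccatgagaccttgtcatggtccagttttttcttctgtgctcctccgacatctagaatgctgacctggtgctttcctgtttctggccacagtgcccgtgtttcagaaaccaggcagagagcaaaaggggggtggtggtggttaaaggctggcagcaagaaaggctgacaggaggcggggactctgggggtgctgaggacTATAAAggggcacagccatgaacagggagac
Pyy: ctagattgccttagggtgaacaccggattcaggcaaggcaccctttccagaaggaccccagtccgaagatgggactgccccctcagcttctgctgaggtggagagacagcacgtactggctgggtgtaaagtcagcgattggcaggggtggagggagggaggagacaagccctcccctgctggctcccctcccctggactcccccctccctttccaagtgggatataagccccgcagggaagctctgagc
Gcg: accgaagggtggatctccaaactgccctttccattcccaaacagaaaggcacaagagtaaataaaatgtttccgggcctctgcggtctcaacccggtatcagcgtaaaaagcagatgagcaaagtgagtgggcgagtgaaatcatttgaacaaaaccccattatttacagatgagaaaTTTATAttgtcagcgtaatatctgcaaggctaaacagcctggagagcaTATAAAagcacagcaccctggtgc
The Ppy and Pyy starts were 6513 bases apart on the same strand. TATAAA, searched on both strands, began at base -31 from the start of Ppy and at bases -72 (as its reverse complement) and -24 of Gcg, and the Pyy stretch held no match. Of 32851 mouse promoter stretches of this length, 12.4% held it. TAATTA, a palindrome found in 4.84% of the stretches, was in none of the 3.

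In the YFP+ libraries all but 1 of the cells that were kept, which held Ins2 alone, were above the Ppy threshold of 24.3 UMIs per 10000, so the class was set by Gcg, Ins2 and Sst. The median Ppy level of Ppy+Gcg+ cells was 1036 UMIs per 10000 in experiment 1 and 1137 in experiment 2, beside 2574 and 2412 in monohormonal Ppy+ cells. The median Gcg level was 1586 and 1058 UMIs per 10000, beside 8.78 and 8.62 in monohormonal Ppy+ cells and 3040 and 3075 in monohormonal Gcg+ cells. A typical bihormonal cell thus held less of each hormone transcript than the corresponding monohormonal class, on values that chose the cells. The Gcg threshold lay at 166 UMIs per 10000. The nearest cells inside it had 167 and 174 UMIs per 10000, and the nearest outside had 163 in both experiments. Beside the 2-hormone class, 39 and 48 YFP+ cells held Ppy, Gcg and Sst, 4 and 8 held Ppy, Gcg and Ins2, and 4 cells of experiment 2 held all 4 hormones.

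**Figure D1:**
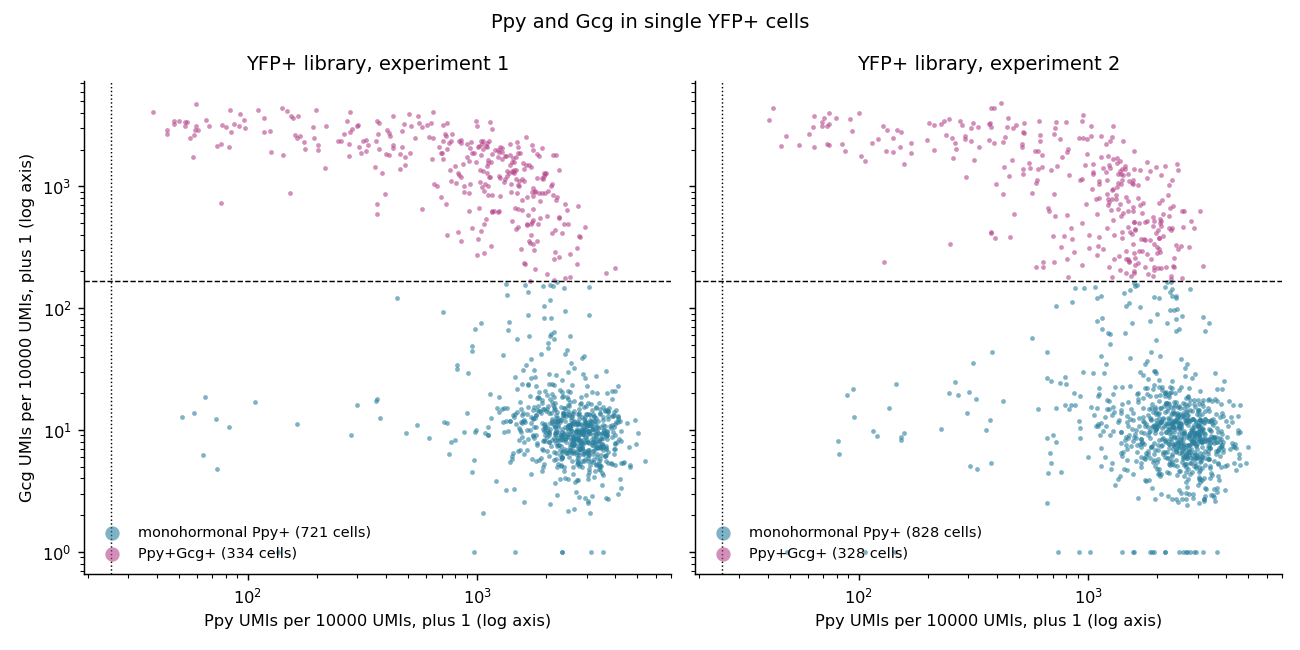
Ppy and Gcg UMIs per 10000 UMIs, plus 1, in single YFP+ cells of each experiment, on log axes; one point is one cell, and the dashed and dotted lines are the Gcg and Ppy thresholds. Ppy+Gcg+ cells form a band in which Gcg falls as Ppy rises, from cells near the α-cell Gcg level with little Ppy to cells just above the Gcg threshold with γ-cell-like Ppy.

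The balance of both hormones ran over nearly the whole possible range. Gcg made up 59.2% of the summed Gcg and Ppy UMIs of the median cell in experiment 1, with 20.2% at the 10th and 96.2% at the 90th percentile, and 46.3% in experiment 2, with 13.6% and 93.8%. From the lowest to the highest of 5 equal bins of that share there were 33, 64, 73, 64 and 100 cells in experiment 1 and 72, 71, 57, 42 and 86 cells in experiment 2. Gcg exceeded Ppy in 201 of 334 and 149 of 328 cells. Both hormones reached 500 UMIs per 10000 in 190 (56.9%) and 148 (45.1%) cells. Across cells, Gcg and Ppy were inversely related (Spearman's rho -0.72 over 334 cells and -0.67 over 328), and Pyy followed Ppy (0.73 and 0.70). Both values of a cell share its UMI total, its library and the rule that chose the cells, and cells of 1 library are not replicates.

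The median UMI count of Ppy+Gcg+ cells was 7738 and 6341, beside 7575 and 5887 in monohormonal Ppy+ cells. Cells above 2 times the median UMIs of their library made up 18.3% and 23.5% of Ppy+Gcg+ cells, beside 6.24% and 11.4% of monohormonal Ppy+ cells. Doublet callers marked 0 and 1 Ppy+Gcg+ cells, but one of them, Scrublet, marked only 8 of the 5982 cells in all, too few to serve as a check. The other, a neighbour-based caller, marks a fixed 2% of the cells of each experiment. It marked only 8 and 4 cells of the YFP+ libraries, so it does not serve as a check either. The 4 libraries shared 21 cell barcodes over all pairs, 7 of them with a Ppy+Gcg+ cell. What part of the class is pairs of cells in 1 droplet was not tested, and counts of called genes without cells above 2 times the median UMIs are given where they differ by over 1.5 times.

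Cells of other types in the same libraries also held Ppy. The 24 and 81 YFP+ cells removed for immune, stromal or endothelial transcripts still held a median of 74.4 and 105 Ppy UMIs per 10000, with a 90th percentile of 135 and 167. Ppy stood at or below that percentile in 36 (10.8%) and 37 (11.3%) of the Ppy+Gcg+ cells, so their Ppy was no higher than in cells of other types of the same library. Free RNA and droplets shared with an endocrine cell were not told apart. In the removed cells the median Gcg level was 13.9 and 12.1 UMIs per 10000, below the Gcg threshold, although 4 of the 24 in experiment 1 were above it.

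The reporter transcripts were also read in these low-Ppy cells and in the other Ppy+Gcg+ cells. Both groups were split on Ppy, whose promoter also drives rtTA. A lower share with rtTA may thus follow from the split itself, and no conclusion is drawn from it. These shares were not taken at equal depth. A UMI of rtTA, which is transcribed from the Ppy locus, was present in 0 of 36 and 1 of 37 low-Ppy cells, beside 147 of 298 (49.3%, 95% interval 43.5 to 55.2) and 88 of 291 (30.2%, 25.0 to 35.9) of the others. The exact 95% interval of 0 of 36 reaches up to 9.74%. In monohormonal Ppy+ cells 63.5% and 43.7% had a UMI of rtTA, and in the 326 and 345 monohormonal Gcg+ cells of the YFP- libraries none had. YFP, transcribed from the R26 locus after recombination, was found in 33.3% (95% interval 18.6 to 51.0) and 29.7% (15.9 to 47.0) of low-Ppy cells and in 76.5% and 61.9% of the others. YFP was also found in 58.3% and 27.2% of the removed YFP+ cells and in 1.23% and 0.870% of monohormonal Gcg+ cells. Median depth was lower in the low-Ppy cells (6456 and 3859 UMIs) than in the other Ppy+Gcg+ cells (8050 and 6905), and lowest in the removed cells (3464 and 2302). At 118 and 116 unscaled CPM, YFP in low-Ppy cells was no higher than in the removed YFP+ cells (196 and 130). It was 172 and 135 in the other Ppy+Gcg+ cells and 169 and 143 in monohormonal Ppy+ cells. These were near the removed cells too, so this comparison does not set low-Ppy cells apart. The monohormonal Gcg+ cells had been sorted as YFP-.

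**Figure D2:**
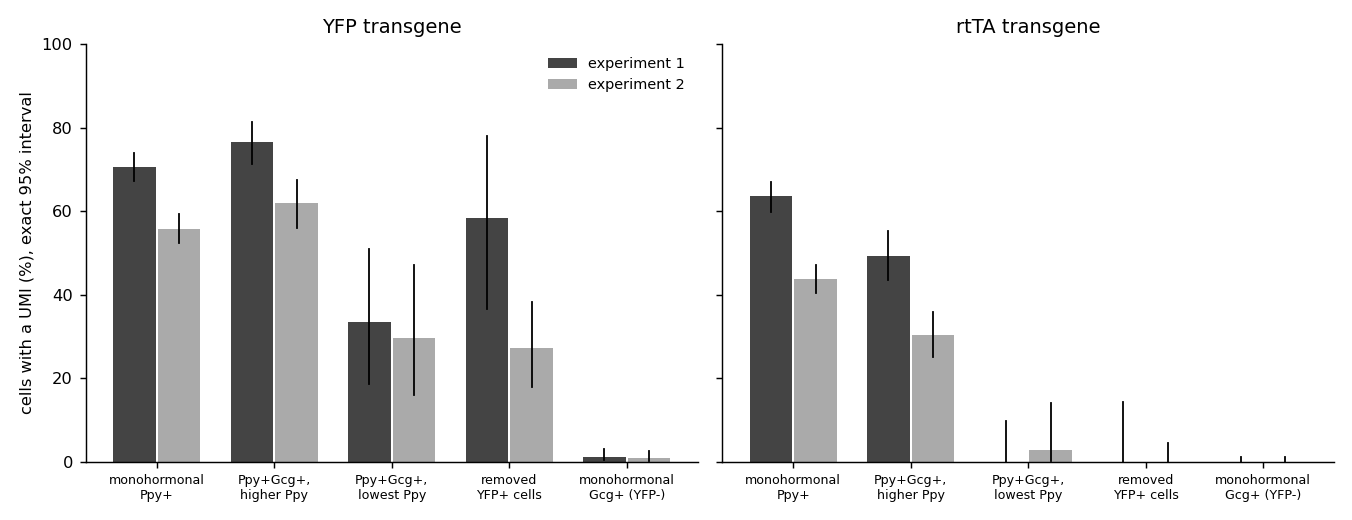
Share of cells with at least 1 UMI of YFP (left) or rtTA (right), in percent, for 5 groups of cells in both experiments; lines are exact 95% binomial intervals, and lowest Ppy means at or below the 90th percentile of the removed YFP+ cells. rtTA is found in 49.3% and 30.2% of the Ppy+Gcg+ cells with higher Ppy and in 0 of 36 and 1 of 37 of those with the lowest. These groups were split on Ppy, whose promoter also drives rtTA.

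To compare expression between classes, the UMIs of all cells of one class and library were added up, and these sums were tested with edgeR's quasi-likelihood test with the experiment as a block. A gene was called at a Benjamini-Hochberg adjusted p of at most 0.05 and a change above 0.72 on the log2 scale (0.5 on the natural-log scale). Levels are CPM, the counts of a gene brought to a common library total, scaled by TMM factors, or unscaled where so named, given for experiment 1 and then 2. Since the classes were cut by Gcg and Ppy, neither was tested, and each class has 2 sums. The Ppy+Gcg+ sums enter every comparison below, which are therefore not independent of each other.

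Against monohormonal Ppy+ cells of the same libraries, some genes of α-cells, the factors Irx1 and Irx2 among them, were higher and the γ-cell genes Pyy, Tspan8 and Folr1 lower in Ppy+Gcg+ cells. Of 8471 genes tested, 107 (1.26%) were called higher and 62 (0.732%) lower. Without cells above 2 times the median UMIs 99 were higher and 102 lower. With sums of the YFP+ libraries alone these numbers were 131 and 116, and without the replicate block 42 and 8. Of the 12 α-cell identity genes, all tested, 6 were higher, among them Irx1, Irx2, Slc38a5, Slc7a2 and Ttr, and none lower. The median log2 fold change of the 12 was 1.18, beside 0.01 over all genes. Of 8 tested γ-cell identity genes 3 were lower (Pyy, Tspan8 and Folr1) and none higher, with a median of -0.23. The ninth, Aqp3, had no UMI in the bihormonal class.

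Slc30a8, the zinc transporter that loads secretory granules and is shared by α- and β-cells, was at 289 and 189 CPM beside 19.6 and 20.2 (log2 fold change 3.56, SE 0.20, edgeR adjusted p = 1.61e-11). The α-cell level was 615 and 464 CPM, so that Ppy+Gcg+ cells lay 45.2% and 38.0% of the way from the γ-cell to the α-cell level, and the classes did not overlap.

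Irx1, an Iroquois homeobox factor, stood at 11.9 and 13.8 CPM beside 1.34 and 1.03 (log2 fold change 3.36, SE 0.36, edgeR adjusted p = 4.99e-06). Irx2, its neighbour in the same gene cluster, stood at 26.8 and 27.6 CPM beside 4.03 and 4.95 (log2 fold change 2.59, SE 0.23, edgeR adjusted p = 6.62e-08). Slc38a5, an amino acid transporter known from proliferating α-cells, stood at 14.9 and 13.5 CPM beside 1.54 and 2.06 (log2 fold change 2.95, SE 0.30, edgeR adjusted p = 7.07e-07). Each of these lay between both monohormonal classes, at 22.1% to 42.8% of the distance. Also named by rule were Dpp10, a partner of Kv4 potassium channels, Pdk4, a kinase that inhibits pyruvate dehydrogenase, and Higd1a, a mitochondrial protein induced by low oxygen. Their log2 fold changes were 3.32 (SE 0.40), 3.07 (SE 0.37) and 2.88 (SE 0.22), all called by edgeR. Slc30a8, Irx1, Slc38a5, Dpp10, Pdk4 and Higd1a stayed called under each alternative setting that tested them.

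Ttr, which encodes the thyroid hormone and retinol carrier transthyretin and is abundant in α-cells, was at 11893 and 8411 CPM beside 5719 and 5118 in monohormonal Ppy+ cells. Its log2 fold change was 0.90 (SE 0.24, edgeR adjusted p = 0.0394), and the Ppy+Gcg+ level lay 22.9% and 19.7% of the way to the α-cell level of 32684 and 21816 CPM. Ttr was thus abundant in γ-cells as well. Pyy fell from 296173 and 321106 CPM in monohormonal Ppy+ cells to 132995 and 185013 (log2 fold change -0.96, SE 0.19, edgeR adjusted p = 0.00368), and the α-cell level was 7390 and 5998. Tspan8, a tetraspanin of the cell surface, fell from 493 and 436 CPM to 244 and 241, and Folr1, the folate receptor, from 504 and 67.4 CPM to 200.02 and 26.9. Folr1 differed more between the experiments than between the classes, but in the same direction in each.

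Of 6 prohormone processing genes, 1 was called lower. The convertase gene Pcsk2, which yields glucagon from its precursor, was at 5594 and 4097 CPM beside 4536 and 3843 (log2 fold change 0.20, SE 0.14) and was not called. Pcsk1, the convertase that α-cells largely lack, fell from 16.5 and 14.2 CPM to 2.08 and 4.71 (log2 fold change -2.20, SE 0.36, edgeR adjusted p = 0.000542). Of 9 pan-endocrine transcription factors, Rfx6 was higher (10.7 and 12.4 CPM beside 4.604 and 4.54) and the other 8 were not called. None of the 16 tested excitability and exocytosis genes, 14 endoplasmic reticulum folding genes, 9 immediate early and heat shock genes or 4 granins was called. The granin Chgb, at 399 and 419 CPM beside 688 and 632, passed the adjusted p but not the fold (log2 fold change -0.68, edgeR adjusted p = 0.0161). Gnas, the stimulatory G-protein subunit, and Tmsb15b2, a thymosin, were called higher, at 1660 and 1619 CPM beside 722 and 785 for Gnas. Both belong, with Ttr, to a list of 7 genes chosen with earlier results of these data known, of which 4 were called higher, so the count is not independent evidence. Iapp (2119 and 1664 CPM beside 3058 and 2863, log2 fold change -0.66) and Chga (1791 and 1764 beside 1773 and 1911, -0.06), also on it, were not called.

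**Figure D3:**
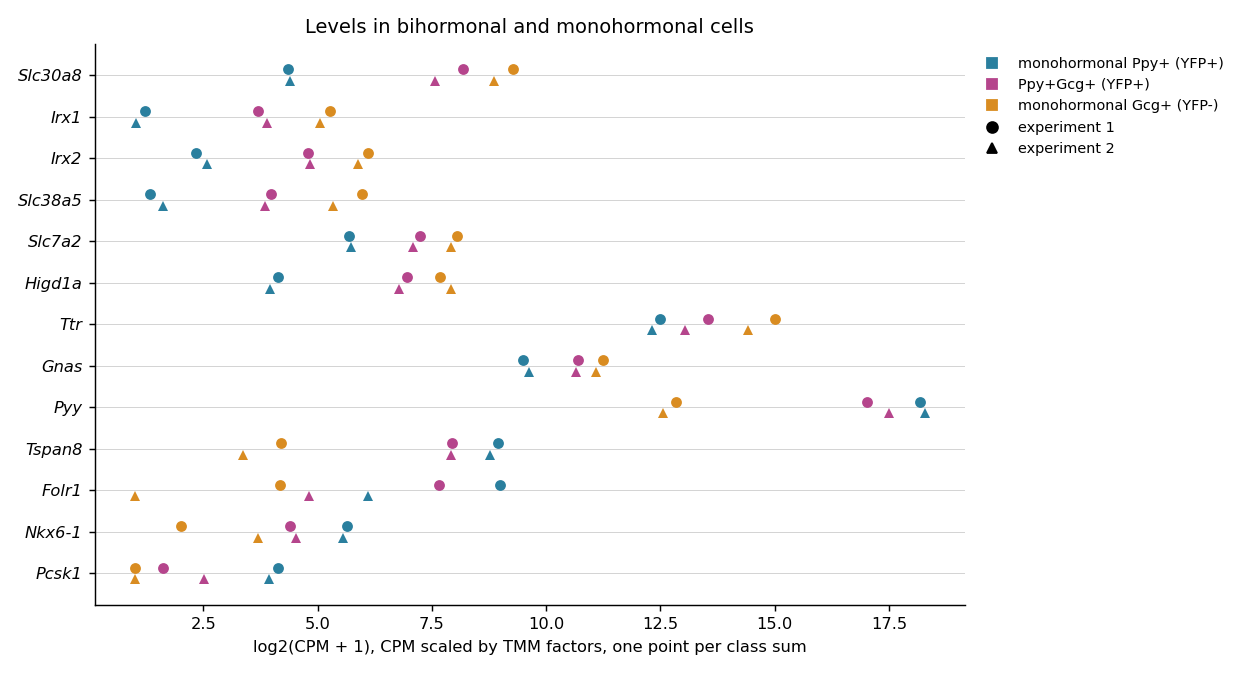
Level of 13 genes as log2(CPM + 1), with one point per class and experiment; colours give monohormonal Ppy+, Ppy+Gcg+ and monohormonal Gcg+ cells, circles experiment 1 and triangles experiment 2. For Slc30a8 the Ppy+Gcg+ sums (289 and 189 CPM) lie between those of monohormonal Ppy+ (19.6 and 20.2) and monohormonal Gcg+ cells (615 and 464).

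β-cell genes were mixed. Of 10 β-cell identity genes, Slc30a8 and G6pc2 (4.17 and 4.37 CPM beside 1.34 and 0.825), whose product is an islet glucose-6-phosphatase, were higher and Nkx6-1, a factor of β-cells that γ-cells also held, was lower (19.9 and 22.2 CPM beside 49.1 and 45.8). Both genes that were higher also stood above the γ-cell level in α-cells. Gpr119, a lipid receptor of islet and gut endocrine cells, was the 1 gene called of 9 tested receptors (30.4 and 29.3 CPM beside 17.5 and 17.5).

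The genes named for the largest decreases were of another kind: Iglc1, Igkc, Igfbp6, Dcn, Mfap5, S100a6, Lgals1 and Sparc, which are known from plasma cells, fibroblasts and other mesenchymal cells. Igkc, an immunoglobulin light chain, was at 14.3 and 6.06 CPM in Ppy+Gcg+ cells and at 15.5 and 508 in monohormonal Ppy+ cells, so the difference lay in experiment 2. Monohormonal Ppy+ cells include 17 and 30 cells with under 500 Ppy UMIs per 10000. With monohormonal Ppy+ cells limited to those at 500 or more, a setting chosen after seeing the data, 107 genes were called higher and 45 lower, and Iglc1, Igkc, Dcn, S100a6, Lgals1 and Sparc were no longer called, while Igfbp6 and Mfap5 gave no value there. All 8 lost their call without the replicate block, and Igfbp6, Dcn, Mfap5 and Sparc also without YFP+ replicate 1. Iglc1, Igkc and Lgals1 lost it without YFP+ replicate 2, and Igkc and S100a6 with DESeq2. The ductal genes Sox9 and Spp1 stayed called lower under that setting. Acinar genes differed little, with none of 11 called and a summed level of 148 and 140 unscaled CPM beside 156 and 114, led by Clps. All 4 erythroid genes were at 0 in both classes, and of the 6 endothelial genes only Pecam1 had UMIs in Ppy+Gcg+ cells. Summed immune genes were at 64.0 and 84.03 unscaled CPM beside 57.3 and 597, and stromal genes at 19.5 and 20.01 beside 50.02 and 35.4. Their part in the genes called lower was not tested beyond this.

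Against monohormonal Gcg+ cells of the YFP- libraries, part of the α-cell identity genes was lower and part of the γ-cell genes higher in Ppy+Gcg+ cells. Of 8471 genes, 128 (1.51%) were called higher and 196 (2.31%) lower, and 176 in all without cells above 2 times the median UMIs. The excess of lower genes turned in other settings, with 53 higher and 37 lower without the replicate block, 84 and 75 with DESeq2 and 50 and 45 without YFP+ replicate 2. Of 12 α-cell identity genes 6 were lower and none higher, and of 8 γ-cell identity genes 3 were higher and none lower. Slc30a8 was 2.27-fold lower (log2 fold change -1.19, SE 0.17, edgeR adjusted p = 8.68e-05) and Ttr 2.68-fold lower (-1.42, SE 0.24, edgeR adjusted p = 0.000512). Tspan8 was at 244 and 241 CPM beside 17.4 and 9.26 (log2 fold change 4.20, SE 0.23, edgeR adjusted p = 2.81e-12), and Chrm3, a muscarinic acetylcholine receptor, at 5.95 and 18.2 CPM beside 0.334 and 0.331. Scg2, a granin, was higher (686 and 1048 CPM beside 299 and 349), as was Nkx6-1.

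Class and sorted fraction cannot be told apart in this comparison, and transcripts of other cells moved with it. Of 11 tested acinar genes 10 were lower in Ppy+Gcg+ cells, and their summed level in monohormonal Gcg+ cells was 3090 and 270 unscaled CPM, led by Clps. Summed immune genes were at 498 and 1281 unscaled CPM in those cells, led by Igkc. S100a8, S100a9, Rbp2, Igha and Jchain, named for the largest decreases, are genes of granulocytes, gut epithelium and plasma cells, and S100a8, S100a9 and Rbp2 had no UMI in Ppy+Gcg+ cells. All 5 lost their call without the replicate block, and all but Igha also without YFP+ replicate 2 and with DESeq2. The YFP transcript was at 166 and 135 CPM beside 1.34 and 1.32, which restates the sort.

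The same hormone rule found 45 and 39 Ppy+Gcg+ cells in the YFP- libraries, and these stood closer to α-cells in Pyy, Tspan8, Folr1 and Slc30a8. Ppy was at 14681 and 20879 CPM there, beside 122061 and 139686 in Ppy+Gcg+ cells of the YFP+ libraries. Of 8471 genes, 23 (0.272%) were called higher in the YFP+ class and 28 (0.331%) lower. All genes together were shifted by 0.10 on the log2 scale, and with DESeq2 size factors in place of TMM (median -0.02) 14 were higher and 34 lower. After thinning, 22 were higher and 5 lower, but all genes tested there were together shifted by 0.56 on the log2 scale. That split cannot be told apart from the shift, so no turn is read from it. The split did turn without YFP+ replicate 2 and without YFP- replicate 2, while lower genes prevailed without YFP- replicate 1. Without cells above 2 times the median UMIs, 12 were higher and 10 lower. Without the replicate block, 6 were higher and 1 lower. Pyy was 4.41-fold higher in the YFP+ class (log2 fold change 2.14, SE 0.20, edgeR adjusted p = 1.77e-07), at 132995 and 185013 CPM beside 39601 and 32548. Tspan8 and Folr1 were also higher (log2 fold change 2.21 and 2.20). Slc30a8 was lower, at 289 and 189 CPM beside 492 and 449 (log2 fold change -0.9999, SE 0.18, edgeR adjusted p = 0.00487). Ttr, at 11893 and 8411 CPM beside 19945 and 17656, did not pass the test (log2 fold change -0.90, SE 0.24, edgeR adjusted p = 0.0988). Irx1, Irx2, Slc38a5 and Slc7a2 were lower in both experiments but were not called either.

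YFP- bihormonal cells had nearly no transgene transcript. rtTA was at 4.62 and 4.40 CPM and YFP at 2.31 and 6.60, beside 228 and 111 CPM for rtTA and 166 and 135 for YFP in the YFP+ class. Sult1d1, a sulfotransferase, and Spock2, an extracellular proteoglycan, were also named for an increase in the YFP+ class, but each lost its call under 9 settings. Among genes whose groups did not overlap, those named for the largest decreases were S100a8, Jchain, Igha, Igkc and Ighg3. S100a8 and Jchain lost their call without YFP+ replicate 2, and all but Ighg3 without the replicate block. Jchain also lost it without cells above 2 times the median UMIs. Igkc reached 3450 CPM in the 39 YFP- cells of experiment 2, where summed immune genes stood at 5999 unscaled CPM. Insulin transcripts also moved with this comparison. Ins1 was called lower in the YFP+ class, at 242 and 557 CPM beside 1876 and 1175 (log2 fold change -1.84, SE 0.35, edgeR adjusted p = 0.00914). Median Ins2 was 13.2 and 5.05 UMIs per 10000 beside 76.4 and 29.1. Other classes differed in the same way between the libraries. Median Ins2 was 81.4 and 30.3 in monohormonal Gcg+ cells and 83.1 and 34.1 in removed cells of the YFP- libraries. In monohormonal Ppy+ cells of the YFP+ libraries it was 12.7 and 4.75. The Ins2 difference is thus not particular to the bihormonal cells. The source of these transcripts was not tested. Whether the Ppy of YFP- cells is their own was not tested.

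Within the YFP+ fraction rtTA was called lower in Ppy+Gcg+ cells and YFP was not called. rtTA was at 228 and 111 CPM in Ppy+Gcg+ and at 583 and 317 in monohormonal Ppy+ cells, 2.69-fold lower (log2 fold change -1.43, SE 0.13, edgeR adjusted p = 1.9e-07), and Ppy, with no test, at 122061 and 139686 beside 305252 and 291178 CPM. Without the experiment as a block rtTA was not called (edgeR adjusted p = 0.137). YFP was at 166 and 135 CPM beside 200 and 170 (log2 fold change -0.30, SE 0.17, edgeR adjusted p = 0.501), lower in both experiments. The difference between the transgenes was not tested.

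Sums do not show whether genes of both kinds were held by the same cell, so they were also counted within single cells. Slc30a8, higher in α-cells, and Tspan8, higher in γ-cells, had a UMI in the same cell in 177 of 334 Ppy+Gcg+ cells (53.0%, 95% interval 47.5 to 58.4) in experiment 1 and in 111 of 328 (33.8%, 28.7 to 39.2) in experiment 2. The shares were 7.77% and 6.16% in monohormonal Ppy+ cells, at median depths of 7575 and 5887 UMIs, and 11.7% and 5.51% in monohormonal Gcg+ cells, at 7866 and 6360. Tspan8 was found in 66.8% and 59.0% of the Ppy+Gcg+ cells with Slc30a8 and in 85.5% and 64.3% of those without. In cells up to 2 times the median UMIs of their library, both were found together in 132 of 273 (48.4%) and 52 of 251 (20.7%) cells.

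Alone, Slc30a8 was detected in 79.3% and 57.3% of Ppy+Gcg+ cells, against 8.18% and 7.13% of monohormonal Ppy+ and 97.9% and 90.7% of monohormonal Gcg+ cells. After each cell was thinned to 1000 UMIs, the shares of cells with Slc30a8 were 25.7% and 18.3%, 1.53% and 1.09%, and 46.6% and 42.0% in that order. Tspan8 was detected in 70.7% and 61.3% of Ppy+Gcg+ cells (19.2% and 17.4% after thinning), in 90.2% and 78.4% of monohormonal Ppy+ cells and in 12.0% and 6.38% of monohormonal Gcg+ cells.

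How far single cells lay between γ- and α-cells was described by the UMIs of 19 α-cell genes per 10000 UMIs outside the hormone genes, here called the α-level. The genes were at least 4-fold higher in monohormonal Gcg+ than in monohormonal Ppy+ sums of both experiments, without Ttr and genes of other cell types, and the measure was added after seeing the data. The median α-level of Ppy+Gcg+ cells was 27.3 in experiment 1 and 23.0 in experiment 2. It was 5.39 and 7.14 in monohormonal Ppy+ and 48.5 and 51.0 in monohormonal Gcg+ cells, the classes that chose the genes. Among Ppy+Gcg+ cells the 5th to 95th percentile ran from 9.50 to 54.5 and from 5.47 to 65.0, and the SD was 14.7 and 18.5, while counting alone gives 7.79 and 9.06. The SD of monohormonal Gcg+ cells was much the same, at 15.0 and 16.8 (counting 10.1 and 12.0), and that of monohormonal Ppy+ cells was 5.10 and 6.62 (counting 4.24 and 5.83). In experiment 1, 66 cells were at or below the 95th percentile of monohormonal Ppy+ cells, 104 lay above it and below the 5th percentile of monohormonal Gcg+ cells, and 164 were at or above the latter. In experiment 2 these numbers were 128, 59 and 141.

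**Figure D4:**
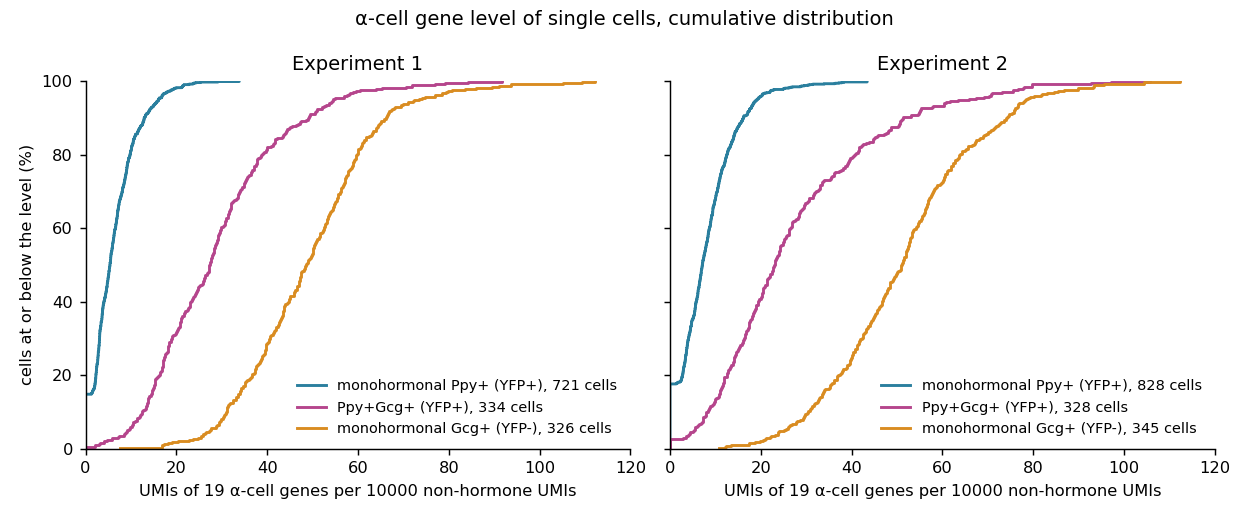
Cumulative share of cells, in percent, against the UMIs of 19 α-cell genes per 10000 non-hormone UMIs, for monohormonal Ppy+, Ppy+Gcg+ and monohormonal Gcg+ cells in each experiment. The Ppy+Gcg+ curve runs between the others, with medians of 27.3 and 23.0, and overlaps both.

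The α-level rose with the hormone balance. Its Spearman's rho with the Gcg share of both hormones was 0.69 over 334 cells and 0.66 over 328 cells. Gcg and Ppy also chose the cells, the low-Ppy cells were split on Ppy, and cells of 1 library are not replicates. These values therefore describe the cells and are no test. The 36 and 37 low-Ppy cells had a median of 43.6 and 50.5, near the α-cell median, and the other Ppy+Gcg+ cells 25.7 and 21.3. In low-Ppy cells Tspan8 was at 29.5 and 48.9 unscaled CPM, beside 263 and 250 in the others. The α-level is not specific to α-cells, since monohormonal Ins2+ cells stood at 24.6 and 23.5, and Ppy+Gcg+ cells of the YFP- libraries at 41.5 and 46.7.

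The other measure of position was the share of α-cell genes among the UMIs of γ- and α-cell genes, with genes chosen in one experiment and used in the other. It rests mostly on Ttr (76.0% and 82.2% of the α-cell gene CPM) and Pyy (99.5% and 99.8% of the γ-cell gene CPM). Its α-cell genes also hold genes of other cell types, such as the acinar Clps, Ctrb1 and Try5 and the plasma cell gene Igkc from experiment 1 and S100a8, S100a9 and Apoa4 from experiment 2, and its γ-cell genes hold Iglc1. Its median was 10.1% and 6.28% in Ppy+Gcg+ cells, 1.74% and 1.88% in monohormonal Ppy+ and 88.5% and 87.4% in monohormonal Gcg+ cells. Without Ttr and Pyy the medians were 84.2% and 92.5% in Ppy+Gcg+, 33.3% and 64.9% in monohormonal Ppy+ and 100% in both experiments in monohormonal Gcg+ cells. With both genes, an even mix of the pooled monohormonal profiles would give 14.5% and 12.1%. The SD among Ppy+Gcg+ cells, 20.7 and 19.4 percentage points, was above the 1.30 and 1.22 points that counting gives. So was that of monohormonal Ppy+ cells (4.65 and 5.36, counting 0.567 and 0.658) and of monohormonal Gcg+ cells (15.2 and 15.4, counting 2.88 and 3.33).

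To see which genes follow Gcg among the bihormonal cells, the cells of each library were split into terciles of Gcg level, which are ranges and not cell types. The highest tercile was compared with the lowest, with 2 sums each. Median Gcg was 584, 1593 and 2893 UMIs per 10000 over the terciles of experiment 1 and 317, 1061 and 2602 in experiment 2. Of 7374 genes tested, 67 (0.909%) were called higher in the highest tercile and 70 (0.949%) lower. Without cells above 2 times the median UMIs 58 were called in all, 36 higher and 22 lower. The split also varied with 22 higher and 12 lower without the replicate block and 132 and 93 at a log2 fold above 0.5. With terciles of the Gcg share of both hormones it was 72 and 102. Median UMI counts fell over the terciles, from 9948 to 6998 and from 8334 to 4842, and the median α-level rose, from 18.2 to 27.6 and 37.1 and from 15.2 to 23.1 and 39.2.

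Of 11 tested α-cell identity genes 3 were called higher, Slc38a5 and Ttr among them, and none was lower. Slc38a5 was at 7.25, 14.9 and 27.1 CPM in the lowest, middle and highest tercile of experiment 1 and at 7.02, 11.6 and 30.5 in experiment 2 (highest against lowest: log2 fold change 1.98, SE 0.39, edgeR adjusted p = 0.000329). Ttr rose from 6251 to 21032 and from 6148 to 15016 CPM (log2 fold change 1.51, SE 0.10, edgeR adjusted p = 1.48e-18). Irx1 and Irx2 did not pass the test, and Irx1 went from 13.0 to 7.08 CPM in experiment 1 and from 7.02 to 30.5 in experiment 2. Irx2 went from 22.5 to 28.3 CPM and from 20.3 to 44.1 (log2 fold change 0.71, edgeR adjusted p = 0.206). Differences between these genes were not tested.

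Of 8 tested γ-cell genes, Pyy, Tspan8 and Folr1 were called lower, 5 were not called and none was higher. Tspan8 fell from 330 and 301 CPM to 125 and 105 (log2 fold change -1.44, SE 0.13, edgeR adjusted p = 7e-13). rtTA fell from 354 and 144 CPM to 36.6 and 17.0 (log2 fold change -3.20, SE 0.19, edgeR adjusted p = 5.58e-21). Ppy, whose promoter also drives rtTA, fell from 163269 and 180068.5 CPM to 53757 and 54799, with no test. The terciles were cut on Gcg, which ran inversely to Ppy, so the fall of rtTA may follow from the split itself. No conclusion is drawn from it. YFP was at 154 and 138 CPM in the lowest tercile beside 146 and 131 in the highest (log2 fold change -0.08, SE 0.14, edgeR adjusted p = 0.865). The removed YFP+ cells held about as much YFP (196 and 130 unscaled CPM), so these levels are not read as a mark of lineage. A UMI of YFP was found in 79.5%, 74.8% and 61.3% of cells over the terciles of experiment 1 (17.0%, 20.7% and 12.6% after thinning) and in 67.3%, 62.4% and 44.95% in experiment 2 (8.18%, 11.0% and 14.7% after thinning). Depth also fell over the terciles in both experiments. With the cells split at the median Gcg level in place of terciles, the log2 fold change of rtTA was -1.18.

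**Figure D5:**
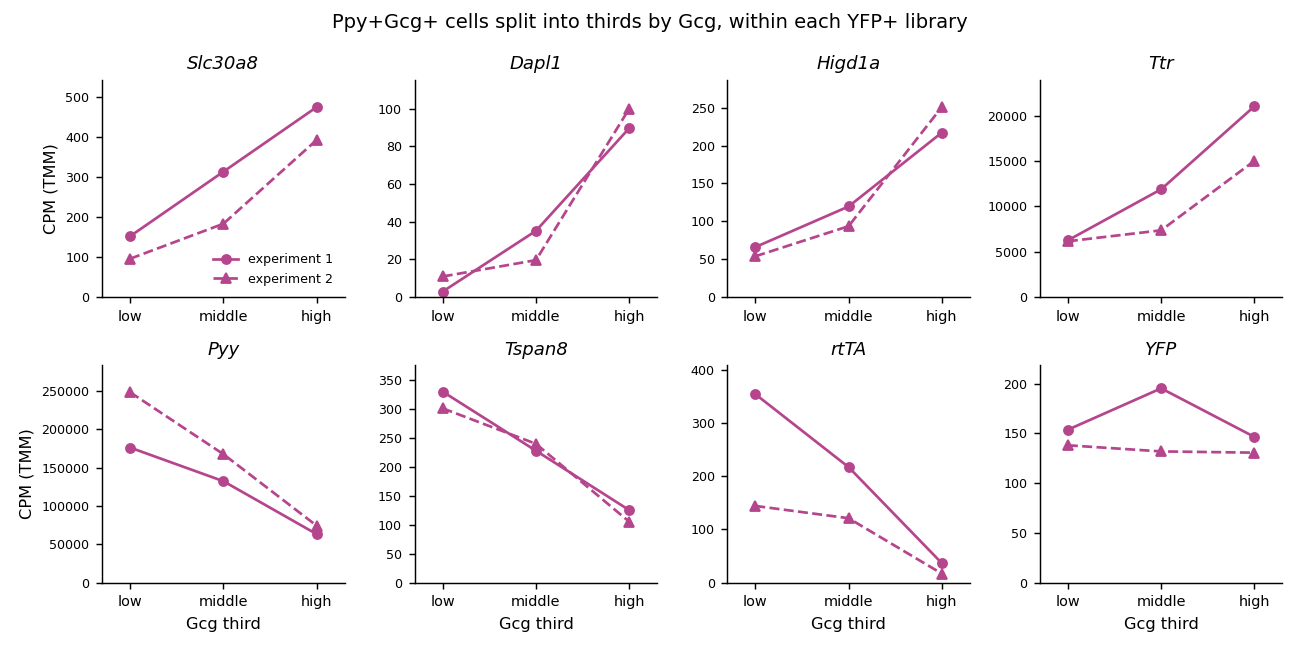
CPM of 8 genes in Ppy+Gcg+ cells of the lowest, middle and highest Gcg tercile, with one line per experiment (solid for 1, dashed for 2) and each y axis starting at 0. Slc30a8, Dapl1, Higd1a and Ttr are highest in the highest tercile, and Pyy, Tspan8 and rtTA are lowest there. YFP is at a like level in the lowest and highest tercile, with 195 CPM in the middle one of experiment 1.

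Among the genes named by rule, Dapl1, a death-associated protein homologue, went from 2.90 and 10.9 to 89.7 and 100.1 CPM (log2 fold change 3.78, SE 0.31, edgeR adjusted p = 6.57e-15). Apod, an apolipoprotein, G6pc2 and Lrrtm3, a synaptic leucine-rich repeat protein, were also higher. Lrrtm3 lost its call without cells above 2 times the median UMIs, Apod without the replicate block, and G6pc2 without the block and with the split at the median. The genes that fell most besides rtTA were Limch1, S100a10, Ntm and Lrrk1 (Ntm not called without the block, and Lrrk1 neither there nor with the split at the median), of which Limch1 went from 28.3 and 17.1 to 1.18 and 1.70 CPM. Slc30a8 rose from 152 and 95.9 to 476 and 393 CPM, and Gpr119 and Tmsb15b2 were higher as well. Nkx6-1, the immediate early gene Jun (118 and 129 to 68.5 and 66.1 CPM) and Spp1 were lower. Of the 107 genes called higher than in monohormonal Ppy+ cells, 51 rose from the lowest over the middle to the highest tercile in both experiments. These 107 include genes not tested over the terciles, where 96 of them were tested. Of all genes tested over the terciles, 6.90% rose in this way. These are counts on the same cells, and no test was made of them.

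The bulk YFP+ libraries held both hormones and those of other islet cells. In the 5 libraries Ppy was at 87365 CPM in the lowest, 96794 in the median and 116446 in the highest, and Gcg at 43968, 69258 and 83707. They also held Ins2, at 5225, 11120 and 15417 CPM, and Sst, at 7119, 8767 and 11511 CPM. Irx2 was at 30.1, 45.6 and 58.0 CPM, beside 1.10 to 1.41 in the 3 bulk δ-cell libraries, so that all 5 γ-cell libraries were above all 3 δ-cell libraries. Irx1 was at 5.64, 8.61 and 9.93 CPM beside 0 to 0.282. Slc38a5 did not follow, at 13.5, 45.3 and 65.5 CPM beside 63.3 to 72.5. Gcg in δ-cell libraries was at 1557, 2159 and 6696 CPM. Bulk libraries cannot tell bihormonal cells from a mixture, nor more cells of a type from more RNA per cell, and the 2 kinds of library differed in sequencing layout, so no test was made.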

How the data were processed

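The authors made the single-cell tables with Cell Ranger on mm10 with YFP and rtTA added, and deposited UMI counts per gene and cell. The deposited bulk read counts per gene were made by the authors with STAR 2.7.2b and HTSeq 0.9.1. The submitters' processing notes also name Seurat, R 3.6.1 and DESeq2 1.28.1. The single-cell libraries held 11705631 and 11523971 UMIs (YFP+) and 18330975 and 10683494 (YFP-). Samples were grouped by their labels, and 6 bulk columns that matched no sample were not used.

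Cells were classed by the hormone thresholds, and UMI counts were summed per class and library into 16 sums with an experiment block (edgeR 4.0.16 in R 4.3.3, TMM, quasi-likelihood test, Benjamini-Hochberg). Python 3.11.15, scanpy 1.11.5, numpy 2.4.6, scipy 1.17.1, pandas 2.3.3, scikit-learn 1.9.0 and matplotlib 3.10.9 were used for the rest, and DESeq2 1.42.0 as an alternative. The fits were also run on simulated data, but no result of that is given here, so it lends them no support. Scrublet used a threshold of 0.2, and a neighbour-based caller with an expected share of 2% marked 120 cells. Marked cells were kept, except in an alternative.

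Same-numbered sums come from the same experiment. Over 28 pairs of classes, their deviations correlated at 0.0646 to 0.507 (median 0.218). Each experiment pooled several mice, and the block takes out the shift between the 2 pools. The p-values thus measure how far differences between sums varied from pool to pool, and not the spread between mice. Residual degrees of freedom were 7 for the class sums and 2 for the tercile sums, and the spread was moderated over all genes. Terciles are parts of the same libraries, so their small p-values do not speak for other mice.

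Named were Ppy, Gcg, Pyy, Ttr, YFP and rtTA, examples from 22 lists with 184 genes, and the called genes with the largest change in each direction: 8 against monohormonal Ppy+ cells and 5 in each other comparison, at 10 CPM or more in the higher group, without overlap between groups, leaving out genes of the cell rule and not naming predicted genes. Some genes that these rules take are not reported here. The cells and lists were chosen with earlier results of these data known.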

Additional observations from a re-analysis of the deposited data

How the results depend on the processing

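The number of called genes depended on the setting. Of the 169 called against monohormonal Ppy+ cells, 50 were also called without the replicate block, 39 after thinning, 35 without YFP+ replicate 1 and 67 without YFP+ replicate 2. The number of genes called against monohormonal Ppy+ cells, 169, was 263 with no filter on low counts, 48 after thinning, 102 with DESeq2 and 36 to 71 when a library was left out (36 without YFP+ replicate 1, 71 without YFP+ replicate 2). Against monohormonal Gcg+ cells, 324 became 176 without cells above 2 times the median UMIs, 38 after thinning, 159 with DESeq2 and 95 (without YFP+ replicate 2) to 422 with a library left out. Against YFP- bihormonal cells, 51 became 106 with no filter, 22 without cells above 2 times the median UMIs, 27 after thinning, 29 with DESeq2 and 22 (without YFP+ replicate 2) to 89 (without YFP- replicate 1) with a library left out. Between terciles, 137 became 133 with no filter, 58 without cells above 2 times the median UMIs and 31 after thinning. It was 30 with DESeq2, 79 with the cells split at the median and 225 at a log2 fold above 0.5. DESeq2 gave no adjusted p for 5895 of 7416 genes between terciles and for 7541 of 9261 against YFP- bihormonal cells. Its counts in these 2 comparisons come from the remaining genes alone. Each of these settings alters how many genes are tested, except for the fit without the replicate block and the log2 fold above 0.5. Between terciles, for example, 4819 genes were tested without cells above 2 times the median UMIs, beside 7374. The cause of the shifts was not otherwise tested. Without the replicate block for the experiment, 50, 90, 7 and 34 genes were called in the 4 comparisons, all of them also called with it, and rtTA against monohormonal Ppy+ cells (log2 fold change -1.40) was not called. Jchain, lower against monohormonal Ppy+ cells, ranged from -7.65 to 0.84 with a library left out (0.84 without YFP+ replicate 2) and was reversed (0.20) with those cells limited to 500 Ppy UMIs per 10000, a setting chosen after seeing the data. The median α-cell gene share was 84.2% and 92.5% without Ttr and Pyy, which make up most of its counts (33.3% and 64.9% in monohormonal Ppy+ and 100% in both experiments in monohormonal Gcg+ cells), with an SD of 10.9 points in experiment 2. With genes at least 10-fold apart in place of 4-fold, the SD was 5.29 and 5.33 points, and the share of Ppy+Gcg+ cells was 14.6% and 9.88% with both hormones at 500 or more.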
